A study of Mus musculus with 12 samples.

Results

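The genes described here are AP-1 subunits and further members of the immediate-early response: Fos, Fosl1, Fosl2, Jun, Junb, Maff, Atf3, Egr1, Nr4a1 and Ier3. They were found as the probe sets whose annotated symbol is one of these 10 names, in a table of 20523 probe sets that covers 11015 genes by probe sets with a single symbol. The table held 13 such probe sets, 2 each for Fosl1, Fosl2 and Jun and 1 for every other gene. The samples were endothelial cells isolated from the aorta of mice aged 4 weeks, cultured in medium with serum and endothelial growth supplement and infected with a lentivirus. Ets1 null cells carried Ets1-/- and Ets2 fl/fl alleles and received lentiviral-egfp (3 arrays). Ets2 null cells carried Ets1+/+ and Ets2 fl/fl alleles and received lentiviral-egfp-Cre (3 arrays). Ets1/2 null cells carried Ets1-/- and Ets2 fl/fl alleles and received lentiviral-egfp-Cre (2 arrays used). Wild-type cells carried Ets1+/+ and Ets2+/+ alleles and received lentiviral-egfp (3 arrays). Cre, the recombinase that removes floxed sequence, was thus given to the groups that lose Ets2 and to no other, so Cre and Ets2 loss cannot be told apart, and the floxed Ets2 alleles of Ets1 null cells have no counterpart in wild type. The question was how loss of the related transcription factors Ets1 and Ets2, alone and together, changes these genes. The labels call the arrays biological replicates without saying that each came from its own animal, so each p reflects the spread among these arrays alone.

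AP-1 is a dimer of Fos-family and Jun-family proteins that binds the TGANTCA element, and Maf and ATF proteins join it through the same leucine zipper fold. Growth factors and serum act through the ERK kinase cascade on ternary complex factors and the serum response factor. These switch on Fos and Egr1 within minutes, and Fosl1 and Fosl2 follow. Ets1 and Ets2 are themselves ERK substrates that bind a GGAA core, often beside AP-1 elements, and in endothelial cells both families are known for the control of proteases, adhesion molecules and angiogenesis. The transcripts of most of these genes are short-lived.

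Several features of the whole table touch every result. Of the Ets1/2 null columns the third was the average of its 2 companions at 20521 probe sets (99.9903%, tolerance 1e-06) and was left out, which leaves n = 2 there. The array medians lay at 8.30 and 8.29 in Ets1/2 null, against 9.05 to 9.15 in the other groups. Whether all arrays were normalised together is not known here. A difference in processing thus cannot be told apart from genotype in any comparison with Ets1/2 null. Each comparison is given for the deposited log2 values and again with every array's own median subtracted ("centred"), which removes a shift of the median only. The brightest Ets1 probe set averaged 8.74 in Ets1 null, Ets2 null having 9.64 and Ets1/2 null 10.16, against 10.05 in wild type, and that of Ets2 averaged 9.70 in Ets2 null and 10.33 in Ets1/2 null, against 10.14 in wild type. The arrays labelled Ets1/2 null therefore did not show, at these probe sets, the loss their label names. Another Ets1 probe set, however, stood at 6.77 there, against 8.77 in wild type. In each single null the brightest probe set of the named gene had a lower mean than in wild type. No Ets1 or Ets2 probe set was called lower there (adjusted p under 0.05). Whether the probes lie in the deleted parts is not known here. By the Y-linked Eif2s3y, the 3 arrays of Ets2 null and the first of wild type came from males and the rest from females. Of 14 endothelial markers 3 were on the table, and their mean log2 value was 7.33 to 7.91 for Ets1 null, 9.18 to 9.64 for Ets2 null and 6.54 to 7.80 for Ets1/2 null, against 8.29 to 10.27 in wild type. The mean of 4 epithelial markers (of 6) was 9.84 to 10.25, 7.96 to 8.34 and 8.84 to 8.89 in the same order, against 7.28 to 9.78 in wild type. Over 9 fibroblast markers (of 10) it was 9.76 to 10.33, 10.01 to 11.15 and 9.78 to 10.37, against 10.30 to 10.86, over 8 smooth muscle markers (of 10) 8.51 to 9.56, 8.79 to 9.76 and 8.13 to 9.37, against 8.50 to 9.66, and over 5 leukocyte markers (of 10) 7.46 to 7.63, 6.73 to 7.09 and 6.68 to 6.92, against 7.14 to 7.75. These marker means are deposited values, so the lower array medians of Ets1/2 null enter them. Centred, the endothelial mean was -0.49 and -1.76 in Ets1/2 null, overlapping the -0.82 to 1.23 of wild type. That of Ets1 null (-1.8 to -1.23) stayed below wild type. The centred leukocyte mean of Ets1/2 null was -1.62 and -1.37, within the -1.91 to -1.36 of wild type. The part of sex and cell makeup in the results was not tested except where a value is given, and fewer cells of a type cannot be told apart from less RNA per cell.

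The 250 bases before the annotated start are shown for 4 members with called differences below, picked with their values known, so that their elements can be read beside the values. They come from RefSeq on GRCm38.p6, and the windows of 8 of the 10 genes were read. Fosl1 had no entry, and the Egr1 window was left out. Capitals mark matches on either strand to TGANTCA (the AP-1 element) or TGACNTCA (the CRE type bound by AP-1 dimers with ATF proteins). They also mark CGTCA (the core of the CRE, which overlaps the CRE type). Maff has 3 annotated starts and the one with the complete palindrome is shown.
Nr4a1, chr15:101266596-101266845, plus strand: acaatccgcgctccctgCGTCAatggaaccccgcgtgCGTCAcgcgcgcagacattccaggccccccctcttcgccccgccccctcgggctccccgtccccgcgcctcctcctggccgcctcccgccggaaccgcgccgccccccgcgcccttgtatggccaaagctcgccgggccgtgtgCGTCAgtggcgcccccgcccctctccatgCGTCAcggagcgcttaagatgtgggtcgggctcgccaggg
Maff, chr15:79347270-79347519, plus strand: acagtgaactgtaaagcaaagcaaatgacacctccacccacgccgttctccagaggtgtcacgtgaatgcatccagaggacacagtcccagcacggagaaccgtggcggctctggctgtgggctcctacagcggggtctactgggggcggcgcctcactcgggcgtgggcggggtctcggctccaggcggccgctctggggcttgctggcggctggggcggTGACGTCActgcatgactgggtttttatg
Jun, chr4:95052223-95052472, minus strand: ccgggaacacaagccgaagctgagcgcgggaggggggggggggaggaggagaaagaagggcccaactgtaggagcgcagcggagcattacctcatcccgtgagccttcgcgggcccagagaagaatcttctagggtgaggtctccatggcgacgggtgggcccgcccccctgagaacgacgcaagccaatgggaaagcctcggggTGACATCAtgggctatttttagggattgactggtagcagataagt
Atf3, chr1:191183334-191183583, minus strand: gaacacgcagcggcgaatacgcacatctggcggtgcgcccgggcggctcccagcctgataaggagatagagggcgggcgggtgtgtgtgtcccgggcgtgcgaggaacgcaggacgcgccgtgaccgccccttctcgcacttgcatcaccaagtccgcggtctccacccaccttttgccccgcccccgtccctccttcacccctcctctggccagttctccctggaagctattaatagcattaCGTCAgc
The Nr4a1 window held 4 CRE cores, at -233, -213, -69 and -40 from the start, and 1 match to CCGGAA (not capitalised) at -125. CCGGAA is a longer form of the GGAA core named above. The bare GGAA, which occurs in the Fosl2 and Ier3 windows among others, was not counted. Maff held the palindrome at -29, Jun a CRE type element at -45 and Atf3 a CRE core at -7. The Fos window held 2 CRE cores and the Junb window 1, and those of Fosl2 and Ier3 held none of the motifs counted. None of the windows read held TGANTCA or a CArG box, the serum response factor element. Egr1 is not among them, and elements further than 250 bases from a start were not looked for. Of 32851 promoters of this length, 6.75% held TGANTCA, 7.49% TGACNTCA, 17.8% CGTCA, 12% CCGGAA and 1.47% a CArG box. The motifs were picked with the sequences in view, and a match is a description of letters.

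No member was called in Ets1 null, and Maff and Nr4a1 were called lower in Ets2 null, each against wild type. In the deposited values, the arrays labelled Ets1/2 null had lower Jun, Junb, Nr4a1 and 1 of the Fosl1 probe sets than wild type. Maff and 1 of the Fosl2 probe sets were higher. The Junb fall and both rises were the less stable. The Junb call was lost after centring and kept in 13 of 21 alternatives, and the Fosl2 call was kept in 7 of 18. The Maff call was kept in 18 of 21, and its rise of 0.79 was 0.37 without Ets1/2 null array 2. Calls here require an adjusted p (Benjamini-Hochberg, over all 20523 probe sets) below 0.05. In Ets1 null against wild type, 0 of the 13 probe sets were called by limma, where 0.00487% of all probe sets were called lower (1 probe set) and 1900 had an unadjusted p under 0.05. Both Fosl2 probe sets, Maff and Atf3 lay below wild type on every array, 4 of 13 against 8.14% of all probe sets. In Ets2 null against wild type, 2 of 13 were called lower, against 0.287% of all, and 0 higher, against 0.292%. There, Fosl2 (1422931_at), Maff, Atf3, Nr4a1 and Ier3 lay below wild type on every array, 5 of 13 against 14.8% of all. Over the 13 probe sets the median difference was -0.37 for Ets1 null, beside 0.03 over all probe sets, and -1.05 for Ets2 null, beside -0.01. The background is itself unstable: 1 probe set was called in Ets1 null against wild type, and 411 with array weights or 69 without wild-type array 3, while for Ets2 null against wild type it was 119 in all, 7 without Ets1 null array 3 and 0 without Ets2 null array 1. These comparisons share the wild-type arrays.

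In Ets1/2 null against wild type, 2 of 13 probe sets were called higher in the deposited values, where 2.87% of all were, and 5 lower, where 46% of all were. After centring, 3 were called higher, with 21.6% of all, and 4 lower, with 14.4% of all, so the share of all probe sets called lower depends strongly on the scale. Against Ets1 null, 3 were called higher with 1.76% of all and 5 lower with 46%; centred, 4 higher with 21.8% and 3 lower with 13.7%. Against Ets2 null, 4 were called higher with 3.12% of all and 3 lower with 45.7%; centred, 6 higher with 20.2% and 2 lower with 14.9%. The median difference of the set in the deposited values was -0.38, 0.13 and 0.83 in these 3 comparisons, beside -0.63, -0.63 and -0.60 over all probe sets. Centred, it was 0.42, 0.97 and 1.60, beside 0.16, 0.22 and 0.17. Arrays without overlap were common in these comparisons. Of all probe sets, 58.5% had every Ets1/2 null array below every wild-type array (centred 22.7%) and 6.16% above (centred 33.8%). Against Ets1 null these shares were 62.7% (centred 23.2%) and 5.54% (centred 39.3%). Against Ets2 null they were 58.4% (centred 23.5%) and 6.61% (centred 34.9%).

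**Figure D1:**
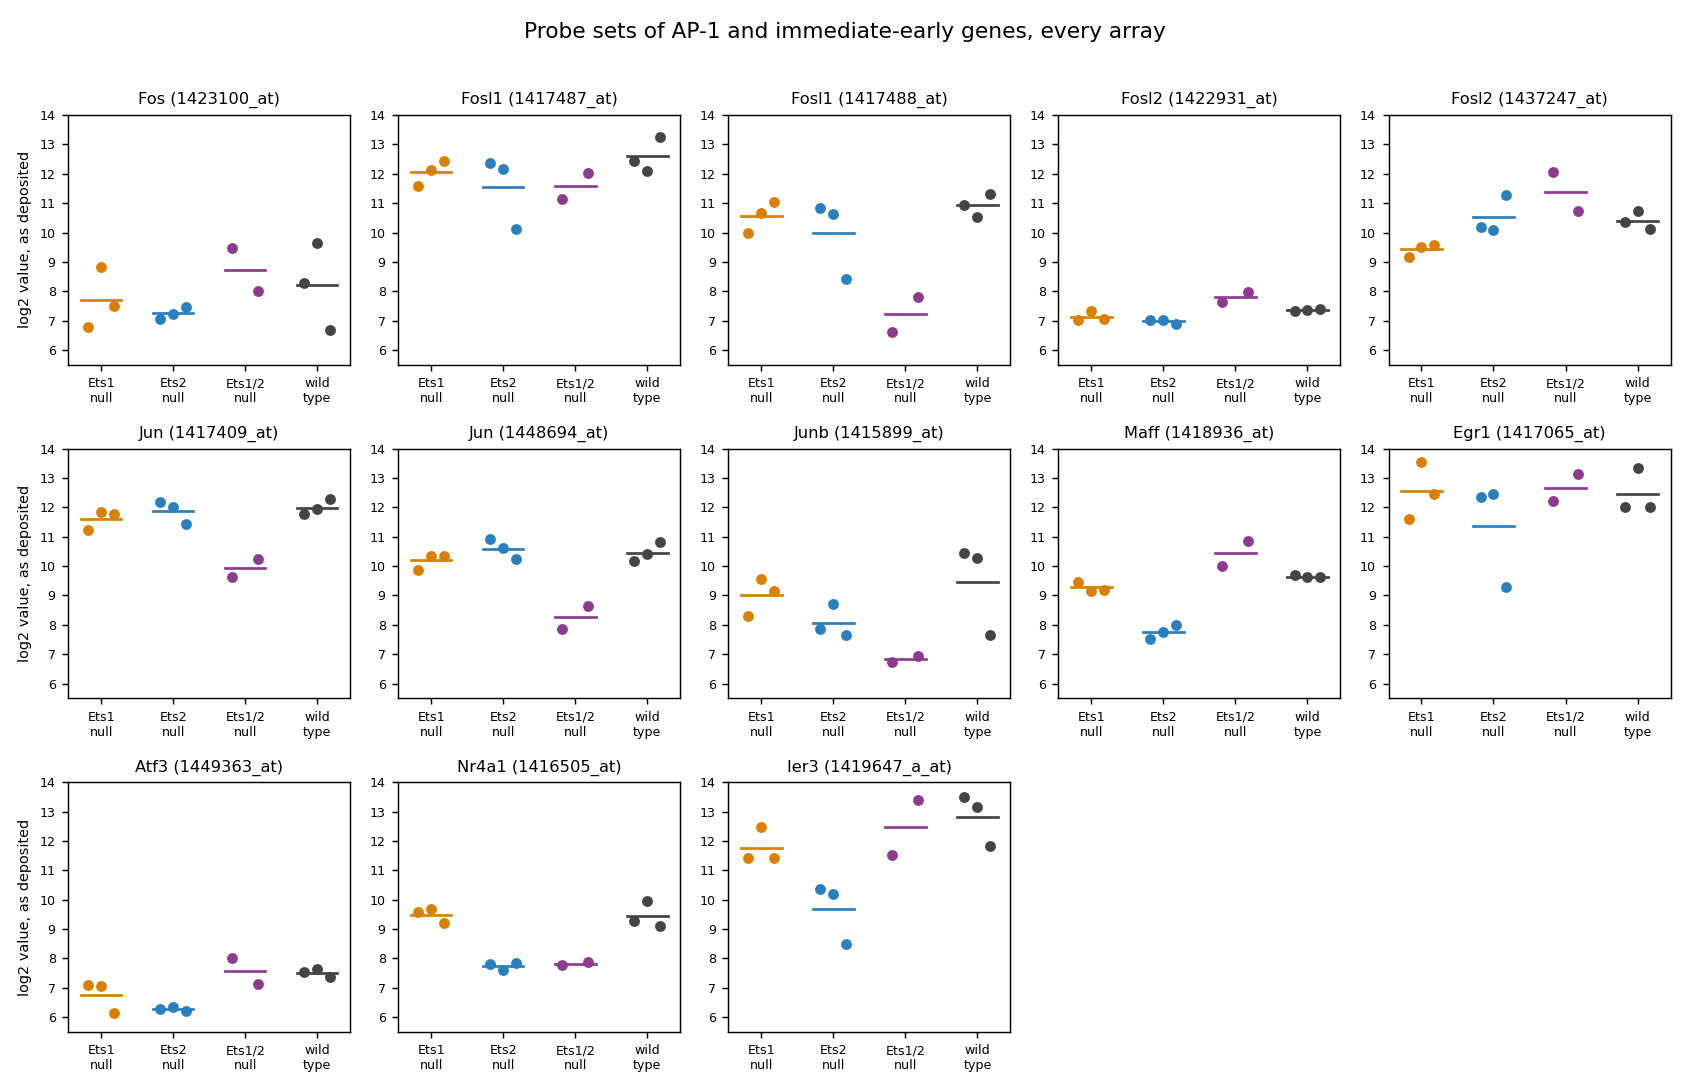
Deposited log2 values (vertical axes, the same scale in every panel) of each of the 13 probe sets on every array. Points are arrays and horizontal lines group means, with Ets1 null, Ets2 null, Ets1/2 null and wild type from left to right. Maff lies between 7.51 and 7.99 in Ets2 null and between 10 and 10.86 in Ets1/2 null, on either side of wild type, while the Nr4a1 points of both groups that received Cre lie between 7.62 and 7.87.

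**Figure D2:**
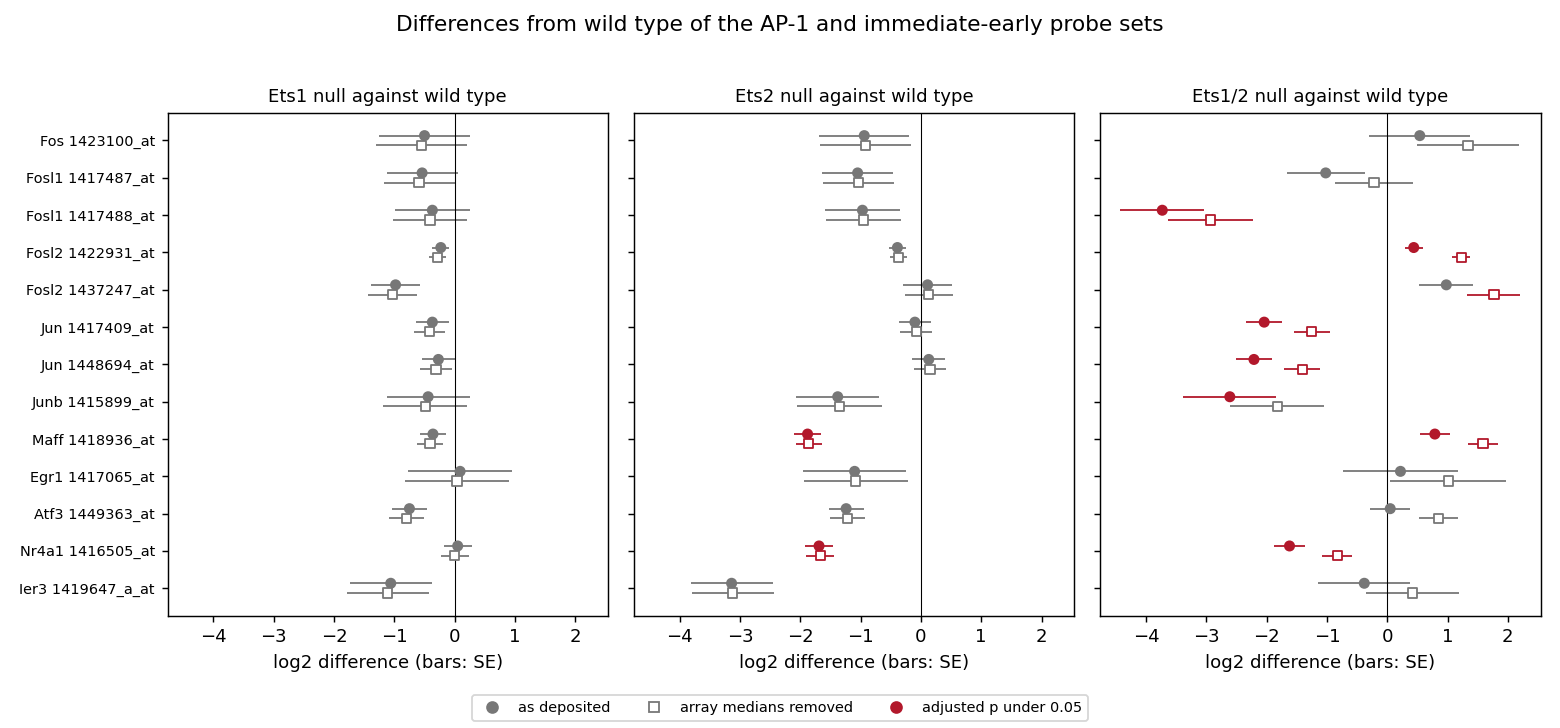
Log2 differences from wild type (horizontal axis) with limma's SE, for each probe set (rows) in Ets1 null, Ets2 null and Ets1/2 null; circles are deposited values, open squares centred values, and red marks an adjusted p under 0.05. No point is red in Ets1 null, and in Ets1/2 null the squares lie to the right of the circles for every probe set.

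The spread between replicates differed widely among the members. The residual SD of Egr1 was 1.20 log2 units and that of Fos 1.05, at the percentiles 97.1 and 95.8 of all probe sets, whose median was 0.28. Junb (0.96), Ier3 (0.94) and both Fosl1 probe sets (0.81 and 0.86) were nearly as variable. Maff (0.28), Nr4a1 (0.29) and the dimmer Fosl2 probe set (0.14) lay at the percentiles 49, 52.2 and 11.6. With n of 2 or 3, differences of 1 log2 unit in Fos or Egr1 lay within their spread.

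Fos, the founding partner of AP-1 and the fastest serum-induced member, overlapped wild type in every null group. Its log2 value (1423100_at) was 6.78, 8.82 and 7.50 in Ets1 null cells, 7.07, 7.24 and 7.46 in Ets2 null cells and 9.47 and 8.01 on the arrays labelled Ets1/2 null, against 8.27, 9.65 and 6.67 in wild type. Centred, it was -2.35, -0.32 and -1.65, then -2.00, -1.81 and -1.62, then 1.17 and -0.28, against -0.78, 0.54 and -2.44. The 3 Ets2 null arrays sat close together while the wild-type arrays held both the highest and the lowest deposited value. Fos differed from wild type by -0.50 ± 0.75 in Ets1 null (SE, adjusted p = 0.877), -0.94 ± 0.75 in Ets2 null (0.512) and 0.54 ± 0.84 in Ets1/2 null (0.618). Both Ets1/2 null arrays lay above every Ets2 null array, a difference of 1.48 ± 0.84 (adjusted p = 0.175; centred 2.26, adjusted p = 0.0642) that was not called.

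Fosl1 (Fra-1), a Fos-family subunit that accumulates under sustained ERK signalling, gave different answers from its 2 probe sets. The brighter, 1417487_at, was 11.60, 12.13 and 12.45 in Ets1 null cells, 12.38, 12.15 and 10.12 in Ets2 null cells and 11.13 and 12.04 on the arrays labelled Ets1/2 null, against 12.44, 12.09 and 13.27 in wild type (centred 2.47, 2.99 and 3.31; 3.31, 3.09 and 1.04; 2.83 and 3.75; 3.39, 2.98 and 4.16). The dimmer, 1417488_at, was 9.97, 10.68 and 11.05 in Ets1 null cells, 10.84, 10.64 and 8.42 in Ets2 null cells and 6.62 and 7.80 on the arrays labelled Ets1/2 null, against 10.94, 10.54 and 11.31 in wild type (centred 0.84, 1.54 and 1.90; 1.77, 1.58 and -0.66; -1.68 and -0.50; 1.90, 1.42 and 2.20). Ets2 null array 3 was low at both probe sets, whereas in the deposited values the Ets1/2 null arrays lay below all others at the dimmer and within the range of Ets2 null at the brighter. Centred, Ets1/2 null array 2 (-0.50) lay above Ets2 null array 3 (-0.66) at the dimmer. The brighter minus the dimmer value was 4.51 and 4.24 in the Ets1/2 null arrays, against 1.40 to 1.96 in all 9 other arrays. The dimmer probe set fell by 3.73 ± 0.70 in Ets1/2 null against wild type (13.2-fold, adjusted p = 0.00202; centred -2.93, adjusted p = 0.011), and the brighter differed by -1.02 ± 0.65 (adjusted p = 0.227; centred -0.22). The dimmer was also lower than in Ets1 null by -3.36 ± 0.70 (adjusted p = 0.0035; centred -2.52, adjusted p = 0.021). Against Ets2 null it was lower by -2.76 ± 0.70 (adjusted p = 0.00953), a call lost after centring (-1.99, adjusted p = 0.0524), without Ets1/2 null array 1 (-2.17, adjusted p = 0.079), with the compared groups alone (adjusted p = 0.0547) and with sex in the fit (-2.74, adjusted p = 0.144). The mean of both Fosl1 probe sets fell by 2.37 in Ets1/2 null against wild type (adjusted p = 0.0164), so the size of the difference in Ets1/2 null, and whether it is called, depends on which probes are read. No Fosl1 difference was called in either single null, where Ets1 null differed by -0.54 ± 0.59 and -0.37 ± 0.62 and Ets2 null by -1.05 ± 0.59 and -0.97 ± 0.62.

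Fosl2 (Fra-2), the other late Fos-family subunit, had its highest group mean in Ets1/2 null at both probe sets. Which differences were called depended on the probe set and the scale. The dimmer probe set lay at the percentiles 11.7, 8.6 and 40.2 of all probe sets in Ets1 null, Ets2 null and Ets1/2 null, against 15.9 in wild type. The dimmer probe set, 1422931_at, was 7.03, 7.32 and 7.05 in Ets1 null cells, 7.02, 7.03 and 6.87 in Ets2 null cells and 7.63 and 7.97 on the arrays labelled Ets1/2 null, against 7.32, 7.36 and 7.41 in wild type (centred -2.10, -1.83 and -2.10; -2.05, -2.03 and -2.21; -0.67 and -0.32; -1.72, -1.75 and -1.70). The brighter, 1437247_at, was 9.18, 9.52 and 9.59 in Ets1 null cells, 10.19, 10.09 and 11.28 in Ets2 null cells and 12.06 and 10.72 on the arrays labelled Ets1/2 null, against 10.36, 10.75 and 10.11 in wild type (centred 0.05, 0.38 and 0.44; 1.12, 1.03 and 2.20; 3.76 and 2.42; 1.32, 1.64 and 1.0). At the dimmer probe set the Ets1/2 null arrays were the highest of all 11, and at the brighter the Ets1 null arrays were the lowest of all. Against wild type the dimmer Fosl2 probe set rose by 0.44 ± 0.15 in Ets1/2 null (adjusted p = 0.0397; centred 1.23, adjusted p = 0.000617), and the brighter differed by 0.98 ± 0.45 (adjusted p = 0.0992), called only after centring (1.77, adjusted p = 0.0136). The dimmer call was small and unstable: the adjusted p was 0.0907, 0.0816 and 0.054 without wild-type array 1, 2 or 3, 0.0538 without Ets1 null array 3, 0.0565 and 0.0579 without Ets2 null array 1 or 2, and 0.255 without Ets1/2 null array 2, where the difference was 0.27. Against Ets1 null both probe sets rose: the dimmer by 0.67 ± 0.15 (adjusted p = 0.00579), the brighter by 1.96 ± 0.45 (adjusted p = 0.00593), and centred by 1.52 and 2.80. The second of these calls was lost without Ets1/2 null array 1 (1.29, adjusted p = 0.0564). Against Ets2 null the dimmer rose by 0.83 ± 0.15 (adjusted p = 0.00188; centred 1.60), a call lost with sex in the fit (0.77, adjusted p = 0.0782), and the brighter differed by 0.87 ± 0.45 (adjusted p = 0.138; centred 1.64, adjusted p = 0.0193). In the single nulls no Fosl2 difference was called: Ets1 null differed from wild type by -0.23 ± 0.14 and -0.98 ± 0.40 (adjusted p = 0.634 and 0.51), and Ets2 null by -0.39 ± 0.14 and 0.11 ± 0.40 (adjusted p = 0.163 and 0.905).

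Jun, the central Jun-family subunit and itself an AP-1 target through its own promoter element, was lower in Ets1/2 null than in every other group, at both probe sets. The brighter, 1417409_at, was 11.24, 11.84 and 11.77 in Ets1 null cells, 12.20, 12.02 and 11.43 in Ets2 null cells and 9.64 and 10.25 on the arrays labelled Ets1/2 null, against 11.76, 11.93 and 12.27 in wild type (centred 2.11, 2.70 and 2.62; 3.13, 2.96 and 2.35; 1.34 and 1.96; 2.71, 2.82 and 3.15). The dimmer, 1448694_at, was 9.88, 10.35 and 10.35 in Ets1 null cells, 10.91, 10.63 and 10.23 in Ets2 null cells and 7.87 and 8.64 on the arrays labelled Ets1/2 null, against 10.16, 10.41 and 10.81 in wild type (centred 0.76, 1.21 and 1.20; 1.84, 1.57 and 1.15; -0.43 and 0.34; 1.11, 1.30 and 1.70). On both scales the Ets1/2 null arrays were below all 9 others, and the probe sets kept their distance, between 1.21 and 1.77 on all arrays. Jun fell, in Ets1/2 null against wild type, by 2.04 ± 0.30 (4.11-fold, adjusted p = 0.000516; centred -1.25, adjusted p = 0.011) and by 2.21 ± 0.30 (4.62-fold, adjusted p = 0.000355; centred -1.41, adjusted p = 0.00642). Against Ets2 null it differed by -1.94 ± 0.30 (adjusted p = 0.000695; centred -1.16, adjusted p = 0.0149) and -2.34 ± 0.30 (adjusted p = 0.00026; centred -1.56, adjusted p = 0.00418). Against Ets1 null it differed by -1.67 ± 0.30 (adjusted p = 0.00159) and -1.94 ± 0.30 (adjusted p = 0.000733), and centred by -0.83, which misses the threshold (adjusted p = 0.0551), and by -1.10 (adjusted p = 0.0194). The calls against wild type and against Ets2 null passed the threshold under every alternative run. In the single nulls Jun stayed within 0.37 of wild type at both probe sets: -0.37 ± 0.27 and -0.27 ± 0.27 in Ets1 null and -0.10 ± 0.27 and 0.13 ± 0.27 in Ets2 null.

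Junb, a Jun-family subunit that often restrains Jun, had its lowest deposited values in Ets1/2 null but a wide spread elsewhere. It was 8.31, 9.57 and 9.15 in Ets1 null cells, 7.87, 8.71 and 7.65 in Ets2 null cells and 6.74 and 6.93 on the arrays labelled Ets1/2 null, against 10.44, 10.28 and 7.64 in wild type. Centred, the values were -0.82, 0.43 and 0.01, then -1.20, -0.35 and -1.43, then -1.56 and -1.36, against 1.39, 1.16 and -1.47. Wild-type array 3 lay far below the other wild-type arrays and, after centring, below Ets1/2 null array 2. Junb fell by 2.61 ± 0.77 in Ets1/2 null against wild type (adjusted p = 0.0195), a call that was lost after centring (-1.82, adjusted p = 0.0973). It was also lost without wild-type array 1 (-2.12, adjusted p = 0.0578) or 2 (-2.20, 0.0586) and without Ets1/2 null array 1 (-2.52, 0.0827) or 2 (-2.71, 0.0695). Against Ets1 null it fell by 2.18 ± 0.77 (adjusted p = 0.0423), again not after centring (-1.33, adjusted p = 0.211). That call was lost without Ets1 null array 2 (adjusted p = 0.115) or 3 (0.0942), Ets2 null array 1 (0.0578) and Ets1/2 null array 1 (0.145) or 2 (0.115). In Ets2 null Junb differed from wild type by -1.38 ± 0.69 (adjusted p = 0.289), and without wild-type array 3 by -2.28 (adjusted p = 0.044). Against Ets2 null the Ets1/2 null difference was -1.24 ± 0.77 (adjusted p = 0.212), and 0.0319 without wild-type array 3. In Ets1 null the difference was -0.44 ± 0.69 (adjusted p = 0.884).

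Maff, a small Maf protein that carries a leucine zipper but no activation domain, separated the groups most cleanly. Its log2 value was 9.46, 9.16 and 9.20 in Ets1 null cells, 7.51, 7.76 and 7.99 in Ets2 null cells and 10 and 10.86 on the arrays labelled Ets1/2 null, against 9.68, 9.62 and 9.62 in wild type. Centred, it was 0.33, 0.02 and 0.05, then -1.57, -1.29 and -1.09, then 1.70 and 2.57, against 0.63, 0.50 and 0.51. The 4 groups did not overlap on either scale, in the order Ets2 null, Ets1 null, wild type, Ets1/2 null. The step between Ets1 null and wild type was -0.36 ± 0.22 (adjusted p = 0.65), so those neighbours did not differ beyond their spread by the fit. In Ets2 null Maff fell by 1.88 ± 0.22 (3.69-fold, adjusted p = 0.0274; centred -1.86, adjusted p = 0.0267). Over its alternatives this difference ran between -2.00 and -1.76 and the adjusted p between 0.00127 and 0.198; it missed the threshold without wild-type array 2 (0.0562), Ets1 null array 3 (0.0514) and Ets2 null array 1 (0.101) or 2 (0.085). When the fit also allowed for sex it was -1.92 (adjusted p = 0.198), and in that fit wild-type array 1 (9.68) is the only wild-type array of the same sex as Ets2 null. Maff rose in Ets1/2 null by 0.79 ± 0.25 against wild type (1.73-fold, adjusted p = 0.0244; centred 1.59, adjusted p = 0.00171). When Ets1/2 null array 2 was left out that rise was 0.37 (adjusted p = 0.214), and without wild-type array 2 it was 0.78 (adjusted p = 0.0552). Against Ets1 null Maff rose by 1.16 ± 0.25 (adjusted p = 0.00406; centred 2.00), and against Ets2 null by 2.68 ± 0.25 (6.40-fold, adjusted p = 4.07e-05; centred 3.45, adjusted p = 4.21e-05). The palindrome printed above lies in the window of 1 of its starts, and the arrays do not tell which start was used.

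Atf3, a stress-induced ATF protein that pairs with Jun proteins on CRE type elements, was dim, with lower means in both single nulls that were not called. Its group means lay at the percentiles 6.2, 1.7 and 35.6 of all probe sets in Ets1 null, Ets2 null and Ets1/2 null, against 18.8 in wild type. It was 7.10, 7.05 and 6.14 in Ets1 null cells, 6.28, 6.36 and 6.20 in Ets2 null cells and 8.02 and 7.12 on the arrays labelled Ets1/2 null, against 7.52, 7.65 and 7.38 in wild type (centred -2.03, -2.09 and -3.01; -2.80, -2.70 and -2.88; -0.28 and -1.17; -1.53, -1.47 and -1.74). All 6 single-null arrays lay below all wild-type arrays, and neither difference was called: -0.75 ± 0.29 in Ets1 null (adjusted p = 0.492) and -1.24 ± 0.29 in Ets2 null (adjusted p = 0.0821). Ets1/2 null differed from wild type by 0.05 ± 0.33 (adjusted p = 0.903; centred 0.85, adjusted p = 0.0708). Atf3 rose against Ets2 null by 1.29 ± 0.33 (2.45-fold, adjusted p = 0.00948; centred 2.06, adjusted p = 0.00178), a call lost without Ets1/2 null array 1 (0.84, adjusted p = 0.0876) and when sex, which differs wholly between these groups, entered the fit (1.29, adjusted p = 0.142). Against Ets1 null it differed by 0.81 ± 0.33 (adjusted p = 0.068), which was called after centring (1.65, adjusted p = 0.00516) and without Ets1/2 null array 2 (1.26, adjusted p = 0.022).

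Egr1, a zinc finger factor induced through the serum response factor, was the most variable member. It was 11.60, 13.56 and 12.47 in Ets1 null cells, 12.35, 12.45 and 9.28 in Ets2 null cells and 12.22 and 13.13 on the arrays labelled Ets1/2 null, against 12.03, 13.35 and 12 in wild type (centred 2.47, 4.42 and 3.32; 3.28, 3.39 and 0.20; 3.92 and 4.84; 2.99, 4.23 and 2.89). In the deposited values the groups overlapped, and Ets2 null array 3 stood far under the other arrays of its group. Centred, both Ets1/2 null arrays lay above every Ets2 null array (2.09, adjusted p = 0.119). No Egr1 difference was called: 0.09 ± 0.86 in Ets1 null (adjusted p = 0.986), -1.10 ± 0.86 in Ets2 null (0.498) and 0.22 ± 0.96 in Ets1/2 null (0.87), each against wild type. Ets2 null array 3 was also the lowest array, after centring, for Ier3 and for 1 probe set each of Fosl1 and Fosl2.

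Nr4a1 (Nur77), an orphan nuclear receptor induced by growth factors such as VEGF in endothelial cells, was low in both groups that received Cre. It was 9.58, 9.69 and 9.21 in Ets1 null cells, 7.80, 7.62 and 7.83 in Ets2 null cells and 7.78 and 7.87 on the arrays labelled Ets1/2 null, against 9.27, 9.97 and 9.09 in wild type. Centred, it was 0.45, 0.55 and 0.06, then -1.27, -1.44 and -1.25, then -0.52 and -0.42, against 0.23, 0.86 and -0.02. On both scales the 5 arrays of cells given Cre lay below the 6 others, and within these 2 sets the groups overlapped in the deposited values. Nr4a1 fell by 1.69 ± 0.23 in Ets2 null (3.24-fold, adjusted p = 0.0274; centred -1.67, adjusted p = 0.0271). It fell by 1.62 ± 0.26 in Ets1/2 null against wild type (3.07-fold, adjusted p = 0.000776; centred -0.83, adjusted p = 0.0307), and was lower than in Ets1 null (-1.67 ± 0.26, adjusted p = 0.000657; centred -0.82, adjusted p = 0.0313). The last comparison is between female arrays only, and with that against wild type it passed the threshold in all 21 alternatives. The Ets2 null call had an adjusted p between 0.00239 and 0.248 over its alternatives; it was lost without Ets1 null array 3 (0.0514) and Ets2 null array 1 (0.101), 2 (0.085) or 3 (0.0693), and when sex entered the fit (-1.52, adjusted p = 0.248). In Ets1 null the difference was 0.05 ± 0.23 (adjusted p = 0.971). Ets1/2 null and Ets2 null differed by 0.07 ± 0.26 in the deposited values (adjusted p = 0.834) and by 0.85 after centring (adjusted p = 0.0282), so their relation depends on the scale.

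Ier3 (IEX-1), no DNA-binding factor but an immediate-early regulator of survival and ERK signalling, fell furthest of the set in Ets2 null without being called. It was 11.42, 12.47 and 11.43 in Ets1 null cells, 10.38, 10.19 and 8.50 in Ets2 null cells and 11.51 and 13.41 on the arrays labelled Ets1/2 null, against 13.51, 13.15 and 11.84 in wild type (centred 2.29, 3.33 and 2.28; 1.31, 1.13 and -0.58; 3.21 and 5.11; 4.46, 4.04 and 2.73). All Ets2 null arrays lay below all 8 others. Ier3 differed from wild type by -3.14 ± 0.68 in Ets2 null (adjusted p = 0.07), -1.06 ± 0.68 in Ets1 null (0.666) and -0.38 ± 0.76 in Ets1/2 null (0.704; centred 0.42). It rose by 2.77 ± 0.76 in Ets1/2 null against Ets2 null (6.80-fold, adjusted p = 0.0141; centred 3.54, adjusted p = 0.0074), a call lost without Ets1/2 null array 2 (1.82, adjusted p = 0.127) and with sex in the fit (3.78, adjusted p = 0.0663). Against Ets1 null the difference was 0.68 ± 0.76 (adjusted p = 0.487).

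**Figure D3:**
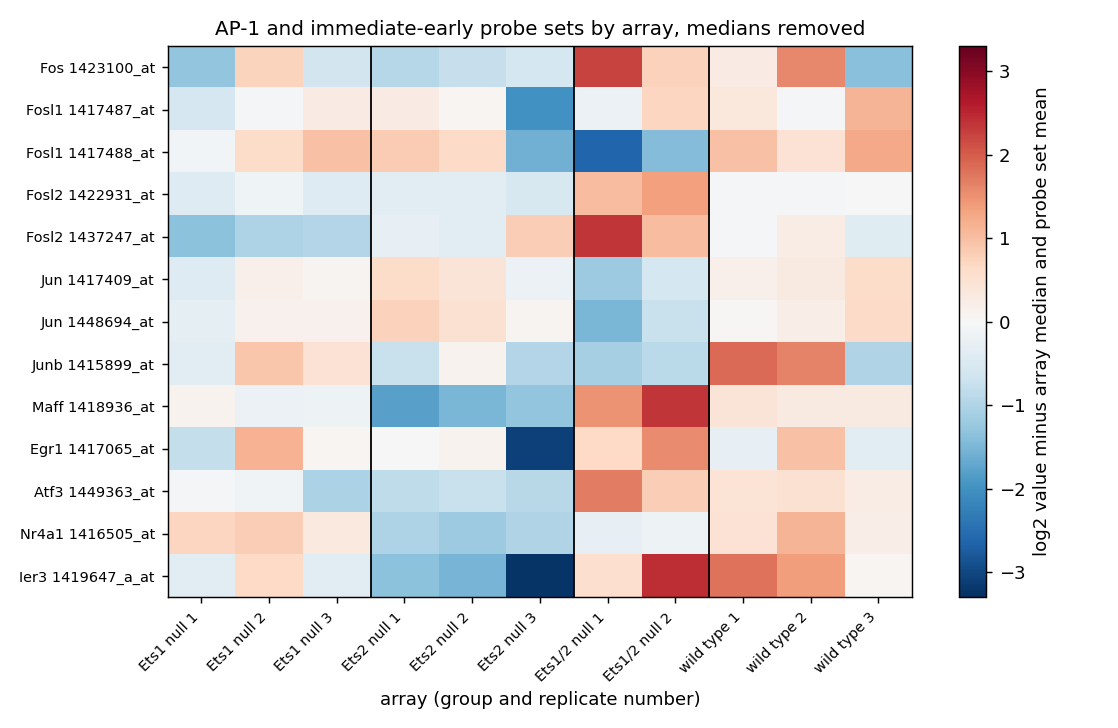
Centred log2 value of each probe set (rows) on each array (columns, grouped as Ets1 null, Ets2 null, Ets1/2 null and wild type), minus the mean of the probe set over the 11 arrays; red is above and blue below that mean. The Ets2 null columns are blue at Maff, Atf3, Nr4a1 and Ier3, and the Ets1/2 null columns are red at Fosl2, Maff and Atf3 and blue at Jun and the dimmer Fosl1 probe set.

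The interaction term compared Cre-treated with other cells on both Ets1 backgrounds: Ets1/2 null minus Ets1 null, less Ets2 null minus wild type. It takes the labels as given, and it holds Cre as well as Ets2. The brightest Ets1 and Ets2 probe sets show no loss on the arrays labelled Ets1/2 null, and no loss of either was called in the single nulls. In the deposited values 5 of 13 probe sets were called higher, where 1.44% of all probe sets were, and 2 lower, where 34% were. The same 5 were called higher after centring, where 10.3% of all were, and none lower, where 9.36% were. Their median was 1.06 (centred 1.89), beside -0.63 (centred 0.19) over all probe sets. Maff had the smallest p of the set: the arrays labelled Ets1/2 null differed from Ets1 null by 1.16 and Ets2 null from wild type by -1.88, so that the interaction was 3.04 ± 0.33 (adjusted p = 0.000212; centred 3.86, adjusted p = 0.000256), and it was between 2.61 and 3.86 in all 20 alternatives, each past the threshold. For Atf3 these 2 differences were 0.81 and -1.24, with an interaction of 2.04 ± 0.44 (adjusted p = 0.00647; centred 2.87), called in all 19 alternatives. For Ier3 they were 0.68 and -3.14 and the interaction 3.83 ± 1.02 (adjusted p = 0.0174; centred 4.65), called in 19 of 20 alternatives and lost without Ets1/2 null array 2 (2.88, adjusted p = 0.0693). The dimmer Fosl2 probe set had 0.67 and -0.39 and an interaction of 1.06 ± 0.21 (adjusted p = 0.00393; centred 1.89), called in all 17 alternatives. The brighter had 1.96 and 0.11 and an interaction of 1.85 ± 0.60 (adjusted p = 0.0395; centred 2.67). That call was kept in 10 of 20 alternatives: the adjusted p was 0.0661 and 0.0829 without wild-type array 1 or 2, 0.081, 0.0672 and 0.0617 without Ets1 null array 1, 2 or 3, 0.0844 and 0.0843 without Ets2 null array 1 or 2, and 0.154 without Ets1/2 null array 1 (1.18).

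Jun was called lower in the deposited values only. Its interaction was -1.57 ± 0.40 (adjusted p = 0.0148) and -2.07 ± 0.41 (adjusted p = 0.00427), against -0.75 (adjusted p = 0.213) and -1.25 (adjusted p = 0.0567) after centring, and the first was lost without Ets1/2 null array 1 (-1.26, adjusted p = 0.063). For Nr4a1 the difference was -1.67 ± 0.26 between the arrays labelled Ets1/2 null and Ets1 null and -1.69 ± 0.23 between Ets2 null and wild type, and the interaction was 0.03 ± 0.34 (adjusted p = 0.959), though 0.85 after centring (adjusted p = 0.108). An adjusted p above the threshold does not show that these differences are equal. Junb (-0.80 ± 1.03), Fos (1.98 ± 1.13), Egr1 (1.23 ± 1.29) and the brighter Fosl1 probe set (0.57 ± 0.88) had errors too wide for a call. The dimmer Fosl1 probe set stood at -2.39 ± 0.93 (adjusted p = 0.0744), and at -3.17 without Ets2 null array 3 (adjusted p = 0.00455).

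**Figure D4:**
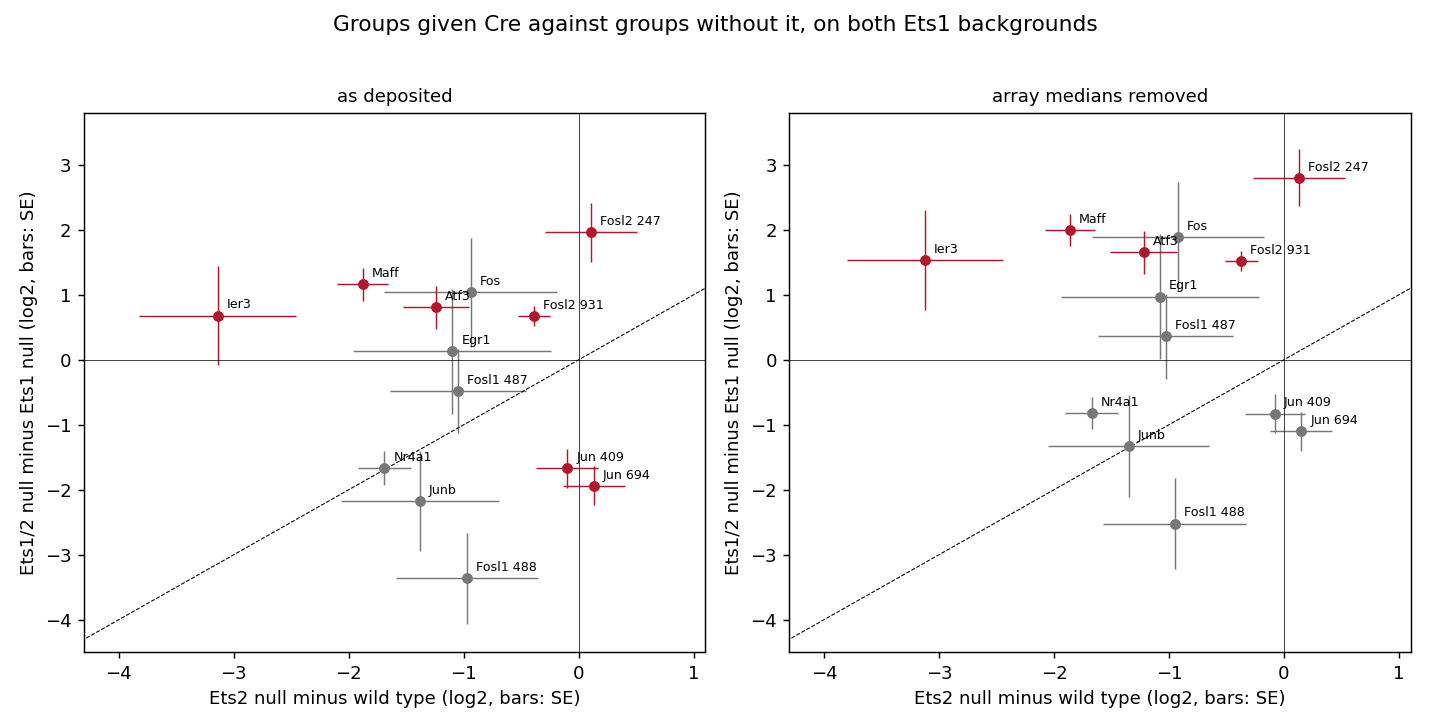
Difference of Ets1/2 null from Ets1 null (vertical axis, log2) against difference of Ets2 null from wild type (horizontal axis, log2) for the 13 probe sets, deposited on the left and centred on the right; bars are limma's SE, the dashed line marks equal differences, red marks an interaction with adjusted p under 0.05, and 3 digits after a gene name end its probe set number. Maff, Atf3, Ier3 and both Fosl2 probe sets lie above the line on both scales, and Nr4a1 lies on it in the deposited values.

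The members share no single profile. The mean centred profile of the 10 genes, each by its brightest probe set, was highest in Ets1/2 null (0.62 and 0.81) and lowest in Ets2 null (-0.61, -0.53 and -1.24), with Ets1 null at -0.44, 0.31 and -0.19 and wild type at 0.55, 0.79 and -0.06. Among 3866 other genes with an SD of at least 0.5 over the 11 arrays, those closest to it by root-mean-square distance were Uaca (0.24), Pdk3 (0.25), Xpnpep1 (0.29), 2810025M15Rik (0.29) and Celf4 (0.34), where the median of all was 0.95. The members themselves lay further from their mean than these genes, from 0.48 (Atf3) to 1.02 (Fosl2). Junb (0.98) and Ier3 (0.97) also exceeded the median, and the remaining members lay below it.

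The other genes of the pathway, from lists chosen with earlier results of these data known, also showed most of their calls in Ets1/2 null. Among 11 further AP-1 subunits and dimer partners on the table (of 15, 18 probe sets), none was called in either single null. Over all probe sets, 14.4% were lower and 2.87% higher on both scales in Ets1/2 null against wild type, and 14.9% and 3.12% against Ets2 null, which is the level to read these lists against. For the AP-1 partners, 2 probe sets in Ets1/2 null against wild type were lower on both scales and 0 higher: Mafg, another small Maf, fell by 2.48 ± 0.32 (adjusted p = 0.000238; centred -1.69) at 1 of its probe sets, and Atf2, a Jun partner, by 2.28 ± 0.20 (adjusted p = 3.47e-05; centred -1.49). Jund rose by 0.80 ± 0.25 in Ets1/2 null against Ets2 null (adjusted p = 0.0228; centred 1.58). The median of this list against wild type was 0.01 in Ets1 null, -0.10 in Ets2 null and -0.22 in Ets1/2 null (centred 0.58).

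Among 20 further immediate-early transcription regulators (of 21, 34 probe sets), none was called in either single null. In Ets1/2 null against wild type 8 were lower and 1 higher on both scales, with a list median of -0.89 (centred -0.10). Cebpb, a C/EBP factor of the acute response, averaged 5.42 in Ets1/2 null against 10.20 in wild type, a difference of -4.78 ± 0.47 (adjusted p = 5.9e-05; centred -3.98). Ier5l fell by 3.37 ± 0.32, Ier5 by 2.80 ± 0.32 and Klf6, a Kruppel-like factor, by 2.56 ± 0.26. Egr2, a relative of Egr1, rose by 2.12 ± 0.60 in Ets1/2 null against Ets2 null (adjusted p = 0.0157; centred 2.90), and Cebpd by 2.36 ± 0.65 (adjusted p = 0.0146; centred 3.14). Of 9 upstream serum response factor, ternary complex and CREB factors (of 12, 18 probe sets), 6 probe sets were lower in Ets1/2 null against wild type on both scales and 0 higher, with a median of -1.06 (centred -0.26). Creb1 and Crem were called higher in the centred values alone (1.09 and 1.13). Elk3, a ternary complex factor, averaged 5.53 in Ets1/2 null against 8.99 in wild type (-3.46 ± 0.34, adjusted p = 5.62e-05; centred -2.67). Srf, the serum response factor itself, averaged 6.71 against 9.07 (-2.37 ± 0.19, adjusted p = 2.05e-05; centred -1.57). The CREB coactivator Crtc2 fell by 2.10 ± 0.16 and 2.35 ± 0.19 at 2 probe sets. The median of these upstream factors was -0.01 in Ets1 null and -0.02 in Ets2 null.

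Of 23 other immediate-early genes (of 28, 36 probe sets), 0 were called in the single nulls, with medians of -0.38 in Ets1 null and -0.65 in Ets2 null. In Ets1/2 null against Ets2 null 7 were higher and 2 lower on both scales. These groups differ wholly in sex, whose part was not tested for the listed genes. Ptgs2, the inducible cyclooxygenase, averaged 11.50 in Ets1/2 null against 5.41 in Ets2 null (6.09 ± 0.82, adjusted p = 0.000324; centred 6.86), and its second probe set rose by 3.62 ± 0.72. The value of 5.41 is dim: in Ets2 null the Atf3 mean of 6.28 already lay at percentile 1.7 of all probe sets. Tnfaip3, an inhibitor of NF-kappaB signalling, rose by 3.36 ± 0.74 and Dusp1, a phosphatase of MAP kinases, by 2.52 ± 0.75. Rgs2, which restrains G-protein signalling, fell by 2.25 ± 0.44 and 2.00 ± 0.39. Against wild type only Errfi1, an inhibitor of the EGF receptor, was called on both scales (-3.60 ± 0.81, adjusted p = 0.00537; centred -2.81).

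Of 13 known AP-1 target genes (of 20, 22 probe sets), Mt1, a metallothionein, was the only one called in a single null: it averaged 11.40 in Ets2 null against 13.49 in wild type (-2.09 ± 0.37, adjusted p = 0.0483; centred -2.07, adjusted p = 0.0488). Mt1 had a mean of 13.95 in Ets1/2 null, a rise of 2.55 ± 0.41 against Ets2 null (adjusted p = 0.000883; centred 3.33). The growth factors Lif and Vegfa rose by 3.94 ± 1.34 (adjusted p = 0.0353) and 1.98 ± 0.49 (adjusted p = 0.00878) in that comparison and the metallothionein Mt2 by 2.68 ± 0.92 (adjusted p = 0.037). Itga5, the fibronectin receptor subunit, averaged 5.62 in Ets1/2 null, against 9.03 in Ets2 null (-3.41 ± 0.43, adjusted p = 0.000214) and 8.93 in wild type (-3.31 ± 0.43, adjusted p = 0.000244; centred -2.52). Cd44, the hyaluronan receptor, fell by 2.12 ± 0.39 in Ets1/2 null against wild type (adjusted p = 0.00199; centred -1.33). Over the list 4 probe sets were higher and 2 lower in Ets1/2 null against Ets2 null on both scales, with a median of -0.42 (centred 0.36).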

How the data were processed

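Total RNA of cultured aortic endothelial cells was hybridised to Affymetrix arrays. The authors deposited log2 values, 1 per probe set, made with RMA per the submitters' processing notes; the sources used here name no version, probe set filter or scan batch. Probe sets were named by the platform annotation (18824 with 1 symbol, 549 with several, 1150 with none). Samples were grouped by titles and genotypes, since the descriptions of the single nulls name the missing gene as wild type. limma 3.58.1 in R 4.3.3 (lmFit and eBayes, two-sided) fitted a mean per group over 11 arrays and all 20523 probe sets, with 7 residual degrees of freedom; errors are limma's SE. The fit was repeated on values with each array median removed. The fit was also run on simulated data, and no result here rests on that run. The number of arrays limits the precision.

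There were 6 comparisons: every null group with wild type, Ets1/2 null with either single null, and the interaction. All members are named. From every other list at most 4 genes per comparison were named, the largest among those called (on both scales for comparisons with Ets1/2 null). Likeness used the 5 nearest genes outside the lists. The members, lists and rules were chosen with earlier results of these data known. Alternatives covered centring, quantile normalisation, a replicate block, an intensity trend, array weights, a term for male arrays, a filter on dim probe sets, fewer groups, other handling of several probe sets per gene and each array left out in turn. Same-numbered arrays of different groups correlated between -0.31 and 0.1 in their deviations from the group means. For differently numbered arrays the range was -0.19 to 0.31. Deviations within a group of 2 or 3 arrays constrain each other, so these correlations cannot decide whether the numbers pair the arrays. pandas 2.3.3 and matplotlib 3.10.9 drew the plots.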

Additional observations from a re-analysis of the deposited data

Results flagged for a closer look

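At 5 probe sets the arrays labelled Ets1/2 null differed from Ets1 null in another way than Ets2 null did from wild type, on both scales, by limma's interaction test. Both differences hold Cre as well as Ets2. The brightest Ets1 and Ets2 probe sets show no loss on the arrays labelled Ets1/2 null, and no loss of either was called in the single nulls. The difference was 1.06 at Fosl2 1422931_at (adjusted p = 0.00393; centred 1.89, adjusted p = 0.000704) and 1.85 at Fosl2 1437247_at (adjusted p = 0.0395; centred 2.67, adjusted p = 0.0153). It was 3.04 for Maff (adjusted p = 0.000212; centred 3.86, adjusted p = 0.000256), 2.04 for Atf3 (adjusted p = 0.00647; centred 2.87, adjusted p = 0.00322) and 3.83 for Ier3 (adjusted p = 0.0174; centred 4.65, adjusted p = 0.0148). With a term for male arrays these were 1.02 and 1.80 for Fosl2 (adjusted p = 0.0244 and 0.119), 3.08 for Maff (0.00228), 2.05 for Atf3 (0.0303) and 4.50 for Ier3 (0.03). All rest on the 2 arrays labelled Ets1/2 null, and their lower array medians move with each difference. Atf3 and Fosl2 1422931_at were also dim, at the percentiles 1.7 and 8.6 of all probe sets in Ets2 null.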

How the results depend on the processing

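Of 616 alternative values of the 31 called results, 545 kept the call, and no called value changed sign. The count of called probe sets moved by over 1.5 times as follows. For Ets2 null against wild type it was 2, and 0 with the replicate block, 0 with a term for male arrays, 0 with the compared groups alone, 5 with array weights and 0 to 3 leaving out 1 array. For Ets1/2 null against wild type it was 7, 4 with the compared groups alone, 4 with 1 probe set per gene (of 10) and 4 to 7 leaving out 1 array. For Ets1/2 null against Ets1 null it was 8, and 5 with 1 probe set per gene; for Ets1/2 null against Ets2 null it was 7, 3 with a term for male arrays and 4 with 1 probe set per gene. The counts for Ets1 null against wild type (0) and the Ets1 by Ets2 interaction (7) stayed within that bound in all alternatives run, the compared groups alone not applying to the interaction. The replicate block moved no other count by that much. Over all probe sets, Ets1 null against wild type gave 1 call, 411 with array weights, 0 with the compared groups alone and 1 to 69 leaving out 1 array. Ets2 null against wild type gave 119, 2687 with array weights, 4 with a term for male arrays, 0 with the block or the compared groups alone and 0 to 260 leaving out 1 array; Ets1/2 null against wild type gave 590 higher and 9431 lower, 4432 and 2957 centred, and 3437 and 3177 after quantile normalisation. The causes were not tested.

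Signs that turned all belong to uncalled values. In Ets1 null against wild type these were Fos (-1.26 to 0.23 leaving out 1 array), Junb (0.05 with a male term, -1.35 to 0.05 leaving out 1 array), Egr1 (-0.13; -0.42 to 0.56) and Nr4a1 (0.00 centred, -0.10 with array weights, -0.04 with a male term; -0.13 to 0.31). In Ets2 null against wild type they were Fosl2 1437247_at (-0.38 with array weights, -0.14 as the mean of its probe sets; -0.27 to 0.32), Jun 1417409_at (0.15, 0.12 with a male term and 0.01 as the mean; -0.26 to 0.12) and Jun 1448694_at (-0.03 to 0.31). In Ets1/2 null against wild type they were Fos (-0.18 with array weights; -0.22 to 1.27), Egr1 (-0.22 with the block, -0.10 with array weights; -0.24 to 0.67), Atf3 (-0.09 and -0.01; -0.40 to 0.50) and Ier3 (0.42 centred, 0.12 quantile; -1.33 to 0.57). Against Ets1 null they were Fosl1 1417487_at (0.36 centred, 0.05 quantile), Egr1 (-0.30 with the block, -0.32 with array weights; -0.34 to 0.64) and Ier3 (-0.27 to 1.63). Against Ets2 null they were Fosl1 1417487_at (-0.03 with the block, -0.53 with array weights, -0.21 with a male term, -1.36 as the mean; -0.68 to 0.49), Junb (0.24 with a male term) and Nr4a1 (-0.02 with the block, -0.19 with a male term). In the interaction they were Fosl1 1417487_at (-0.35 with array weights, -0.91 as the mean; -0.14 to 1.03), Junb (0.02 centred, 0.04 quantile, 0.18 with a male term; -1.29 to 0.11) and Nr4a1 (-0.06 with the block, -0.15 with a male term; -0.24 to 0.20).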
